A study of Mus musculus with 6 samples.

Results

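Antibody isotype genes were examined in the spleens of NOD.B10 mice, which develop a disease like primary Sjögren's syndrome (pSS), and of healthy C57BL/10 (BL/10) controls. The genes are the 8 immunoglobulin heavy chain constant genes (Ighm, Ighd, Ighg1, Ighg2b, Ighg2c, Ighg3, Igha and Ighe), the kappa light chain constant gene Igkc and the J chain gene Jchain. They were chosen by name, and these 10 genes are among the 47729 genes that the count table lists. All 10 passed the filter on low counts.

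Whole spleens of 3 NOD.B10 females (NOD.B10Sn-H2b/J, a NOD strain that carries the H2b haplotype) and 3 BL/10 females (C57BL10/SnJ) were sequenced as 50-base single-end reads, and no mouse was treated. The H2b haplotype is shared by both strains, so they do not differ by design in the MHC but do differ over much of the remaining genome. The labels give an age of 26 weeks for the NOD.B10 libraries and for BL/10 replicate 1, and of 36 weeks for BL/10 replicates 2 and 3, whereas the methods give 26 weeks for all mice.

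Column names and descriptions set the strain used here for a library. Titles and strain fields name the opposite strain in all 6 cases, and every direction given here would be reversed under them. Ifi202b, an interferon-inducible gene known to be poorly expressed in C57BL mice, had between 485 and 838 counts in the libraries called NOD.B10 here and between 0 and 2 in those called BL/10.

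A B cell first uses the constant genes nearest to its rearranged variable region, and naive B cells make IgM and IgD from one primary transcript by alternative splicing. After activation, class switch recombination joins the same variable region to a downstream constant gene, which gives IgG, IgE or IgA. Plasma cells then secrete the antibody in bulk, and the spleen is a site where both naive B cells and plasma cells are found. J chain links IgM and IgA subunits into polymers. Mice of C57BL background and NOD mice carry Ighg2c in the place of the Ighg2a gene of other strains.

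The heavy chain constant genes lie on chromosome 12 of build GRCm38, on the minus strand, in the order Ighm, Ighd, Ighg3, Ighg1, Ighg2b, Ighg2c, Ighe and Igha. Ighm spans 113418558 to 113422730, and Igha, the last gene, spans 113254830 to 113260236 and begins 162.5 kb downstream of the start of Ighm. Igkc is on chromosome 6 from 70726435 to 70726966, and Jchain is on chromosome 5 from 88519809 to 88527891. For these genes, reads were counted on the constant region exons only, which for Ighg3 (113359575 to 113361232) and Ighe (113271174 to 113273248) were the 4 exons of the secreted form in the annotation used.

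The 4 IgG subclasses are close paralogs, and the hinge exon, which joins the first and second constant domains, is where they differ most visibly. The hinge exons are written 5′ to 3′ from the GENCODE M21 transcripts (GRCm38), with capitals for cysteine codons (TGT or TGC) in the reading frame, the positions that can bridge heavy chains.
Ighg1 hinge (chr12:113329844-113329882, minus strand): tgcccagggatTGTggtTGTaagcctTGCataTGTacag
Ighg2b hinge (chr12:113307261-113307326, minus strand): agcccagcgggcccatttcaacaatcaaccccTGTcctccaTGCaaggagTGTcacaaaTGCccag
Ighg2c hinge (chr12:113288263-113288325, minus strand): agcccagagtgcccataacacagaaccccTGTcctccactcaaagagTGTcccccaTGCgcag
Ighg3 hinge (chr12:113360529-113360576, minus strand): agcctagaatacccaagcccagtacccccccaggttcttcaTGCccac

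Reads of 50 bases could tell these genes apart over most of their length. Of the 50-base stretches in the transcripts of Ighg2c, 5.49% were also found in another gene, and the share was 4.15% for Ighg2b, 1.58% for Ighg3 and 0.393% for Ighg1. Ighg2b and Ighg2c shared 70 such stretches with each other, and none was shared between Ighg2c and Ighg1 or Ighg3. For Ighm, Ighd, Igha, Ighe and Igkc the share was 0.0%. The shares cover all annotated transcript sequence, which for Ighg3 (2463 stretches) is longer than its counted exons (1082 bases). The share within the counted exons alone was not measured. These values are for the reference sequence, which is that of C57BL/6J, and the alleles of NOD.B10 were not analysed here.

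IgM and IgA differ from IgG in a tail at the end of the secreted heavy chain, and J chain is linked to its penultimate residue, a cysteine. The last 20 codons and the stop codon are shown for both, with Ighg2c for comparison, again with cysteine codons in capitals.
Ighm secreted end (chr12:113420867-113420929, minus strand): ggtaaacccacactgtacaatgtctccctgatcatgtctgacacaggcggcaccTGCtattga
Igha secreted end (chr12:113258768-113258830, minus strand): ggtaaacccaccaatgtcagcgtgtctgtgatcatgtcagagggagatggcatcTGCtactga
Ighg2c secreted end (chr12:113287389-113287451, minus strand): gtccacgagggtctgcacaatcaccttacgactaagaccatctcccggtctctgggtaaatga
The end of Ighg2c holds no cysteine codon, and Ighm and Igha each hold 1, next to the last codon. Jchain counts are therefore also given against the counts of Ighm and Igha.

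The NOD.B10 libraries held 16257041 to 17160323 counts and the BL/10 libraries 15662712 to 18298451. Levels are given as CPM, read counts scaled to a common library total, and the detection floor of 3 counts, which covers counting error only, was 0.164 to 0.192 CPM. Strains were compared by edgeR's quasi-likelihood test with Benjamini-Hochberg adjustment, which called 17.3% of the 15330 genes tested at an adjusted p under 0.05, and DESeq2 called 21.7%. Standard errors are written SE. BL/10 replicate 1 stood apart. Pancreas acinar genes made up 1.59% of its counts, against 0.227% and 0.0117% in the other BL/10 libraries and at most 0.00328% in NOD.B10. Results that change without it are given with and without it. It is also the only BL/10 library labelled 26 weeks. Fits without it therefore set 26-week NOD.B10 against 36-week BL/10 mice, and strain and labelled age cannot be told apart in them. The defining B cell genes Ms4a1 and Cd79a were present in all libraries, at 238 CPM or more each. Libraries of a strain are separate mice, and in bulk tissue fewer cells of a type and less RNA per cell cannot be told apart.

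Antibody transcripts were more abundant in NOD.B10 spleens. The 10 genes together made up 3.07%, 3.63% and 3.52% of all counts in the NOD.B10 libraries, against 2.28%, 1.68% and 1.95% in BL/10. Ighm, Ighg2c, Igkc and Jchain rose in NOD.B10, by 1.81-fold, 4.10-fold, 1.82-fold and 1.48-fold, and none of the 10 genes fell past the threshold. These 4 of 10 genes compare with 9.11% of all tested genes that were called higher, 8.22% that were called lower and 17.3% that were called in either direction. DESeq2 called the same 4 genes, against 21.7% of the genes it tested. The remaining 6 genes (Ighd, Ighg1, Ighg2b, Ighg3, Igha and Ighe) did not reach an adjusted p of 0.05. With the spread of libraries as the measure, 5 of the 10 genes (the called genes and Ighg2b) had all NOD.B10 libraries above all BL/10 libraries. Of all tested genes, 20.5% were higher in NOD.B10 without overlap, 17.5% were lower and 38.0% were one or the other.

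**Figure D1:**
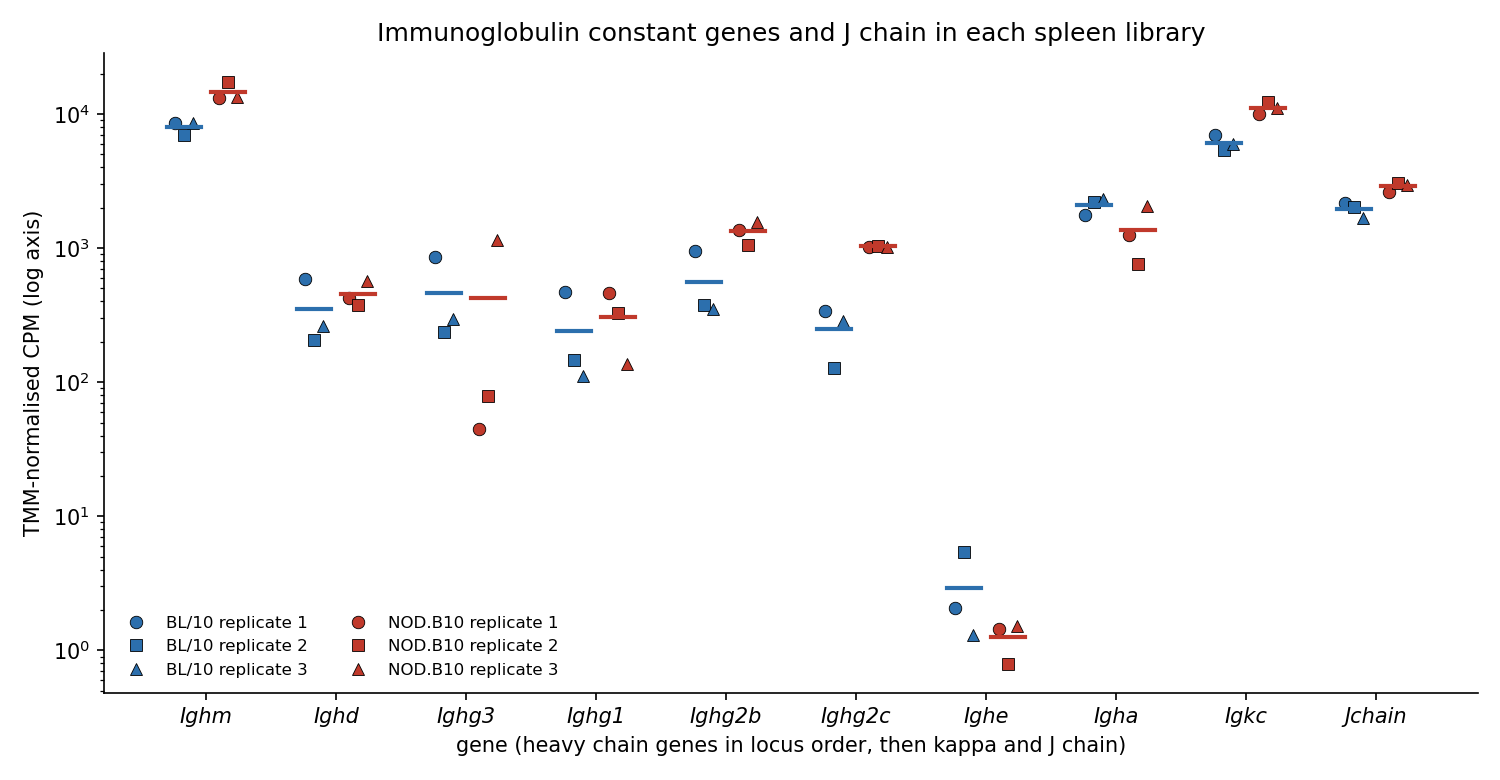
TMM-normalised CPM (log axis) of the 10 genes in each of the 6 libraries. Symbols mark the replicate, colours the strain, and bars the mean of 3 libraries. Ighg2c lay between 1022 and 1039 CPM in NOD.B10 and between 128 and 339 CPM in BL/10, whereas Ighg3 ran from 44.5 to 1153 CPM within NOD.B10.

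IgM was the dominant isotype in every library. Ighm, the heavy chain of IgM, had 13095, 17277 and 13264 CPM in NOD.B10 replicates 1, 2 and 3, against 8554, 6942 and 8563 CPM in BL/10. All NOD.B10 libraries were above all BL/10 libraries, with means of 14545 ± 2367 CPM (SD, n = 3) and 8020 ± 933 CPM (SD, n = 3). The log2 fold change was 0.86 (SE 0.18, edgeR adjusted p = 0.0177), and it stayed between 0.72 and 0.93 with each library left out in turn. The adjusted p was then between 0.0351 and 0.0595, and it was over 0.05 without any 1 of the NOD.B10 libraries or BL/10 replicate 2.

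Ighd, the heavy chain of IgD and a gene of naive B cells, did not pass the test. It had 426, 379 and 568 CPM in NOD.B10 and 588, 208 and 262 CPM in BL/10. BL/10 replicate 1 was the highest of all 6 libraries, and the strains overlapped (log2 fold change 0.38, SE 0.37, edgeR adjusted p = 0.51). Without BL/10 replicate 1 the log2 fold change was 0.95 (edgeR adjusted p = 0.0132), and in the 26-week libraries alone it was -0.36. There were 3.25, 2.19 and 4.28 Ighd reads per 100 Ighm reads in NOD.B10, and 6.88, 2.99 and 3.06 in BL/10.

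Ighg2c was the gene with the largest strain difference among the 10. Its level was 1025, 1039 and 1022 CPM in the NOD.B10 libraries, a coefficient of variation of 0.865%, and 339, 128 and 285 CPM in BL/10. The lowest NOD.B10 library was well above the highest BL/10 library. Means were 1029 ± 8.90 CPM (SD, n = 3) and 251 ± 110 CPM (SD, n = 3), a log2 fold change of 2.04 (SE 0.32, edgeR adjusted p = 0.00538). Across the fits that each left out a library, the log2 fold change stayed between 1.72 and 2.30 and the adjusted p between 0.000883 and 0.0245. In the 4 libraries labelled 26 weeks alone, where BL/10 replicate 1 is the single control, it was 1.60 (edgeR adjusted p = 0.00148), and Ighg2c was the only one of the 10 genes called there.

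Ighg2b, the neighbour of Ighg2c on its upstream side, also had all NOD.B10 libraries above BL/10. It had 1370, 1056 and 1574 CPM in NOD.B10 and 952, 377 and 350 CPM in BL/10, where replicate 1 was 2.72 times the lowest library. The log2 fold change of 1.25 (SE 0.39) did not reach the threshold (edgeR adjusted p = 0.0621). Without BL/10 replicate 1 it was 1.86 (edgeR adjusted p = 0.000933), and in the fits without any other library the adjusted p was between 0.0777 and 0.178. In the 26-week libraries alone the log2 fold change was 0.485.

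Ighg3, an IgG subclass known for responses to carbohydrate antigens, was the most variable of the 10 genes within NOD.B10. NOD.B10 replicates 1 and 2 had 44.5 and 78.6 CPM (744 and 1280 counts), and NOD.B10 replicate 3 had 1153 CPM (20512 counts), 25.9 times the lowest. The BL/10 libraries had 854, 236 and 296 CPM. NOD.B10 replicates 1 and 2 were thus below every BL/10 library and NOD.B10 replicate 3 was above every one. The strain difference was not distinguishable from this spread (log2 fold change -0.12, SE 1.12, edgeR adjusted p = 0.951). Without NOD.B10 replicate 3 the log2 fold change was -2.90 (edgeR adjusted p = 0.0445), and without NOD.B10 replicate 1 or 2 it was 0.42 or 0.38.

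Ighg1, an IgG subclass linked to IL-4, also varied widely within each strain. It had 459, 330 and 136 CPM in NOD.B10 replicates 1, 2 and 3, and 467, 147 and 111 CPM in BL/10. NOD.B10 replicate 3, the highest library for Ighg3 and Ighg2b, was the lowest NOD.B10 library for Ighg1. The strains overlapped almost fully (log2 fold change 0.35, SE 0.60, edgeR adjusted p = 0.715), and the sign turned without NOD.B10 replicate 1 (-0.052) or BL/10 replicate 3 (-0.0066). Without BL/10 replicate 1 the log2 fold change was 1.25 (edgeR adjusted p = 0.0814).

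Igha, the heavy chain of the mucosal antibody IgA, had lower values in most NOD.B10 libraries. It had 1246, 763 and 2073 CPM in NOD.B10, and 1754, 2214 and 2305 CPM in BL/10. NOD.B10 replicates 1 and 2 were below all BL/10 libraries, and replicate 3 lay among them. The log2 fold change of -0.62 (SE 0.33) did not pass the test (edgeR adjusted p = 0.222), and without NOD.B10 replicate 3 it was -1.06 (edgeR adjusted p = 0.0512).

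Ighe, the heavy chain of IgE, was rare, with 24, 13 and 27 counts in the NOD.B10 libraries against 38, 81 and 23 counts in the controls. These counts are above the floor, and 1 library, BL/10 replicate 2, held 81 of the BL/10 counts. The log2 fold change was -1.20 (SE 0.54, edgeR adjusted p = 0.163), and it was -0.43 without BL/10 replicate 2.

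**Figure D2:**
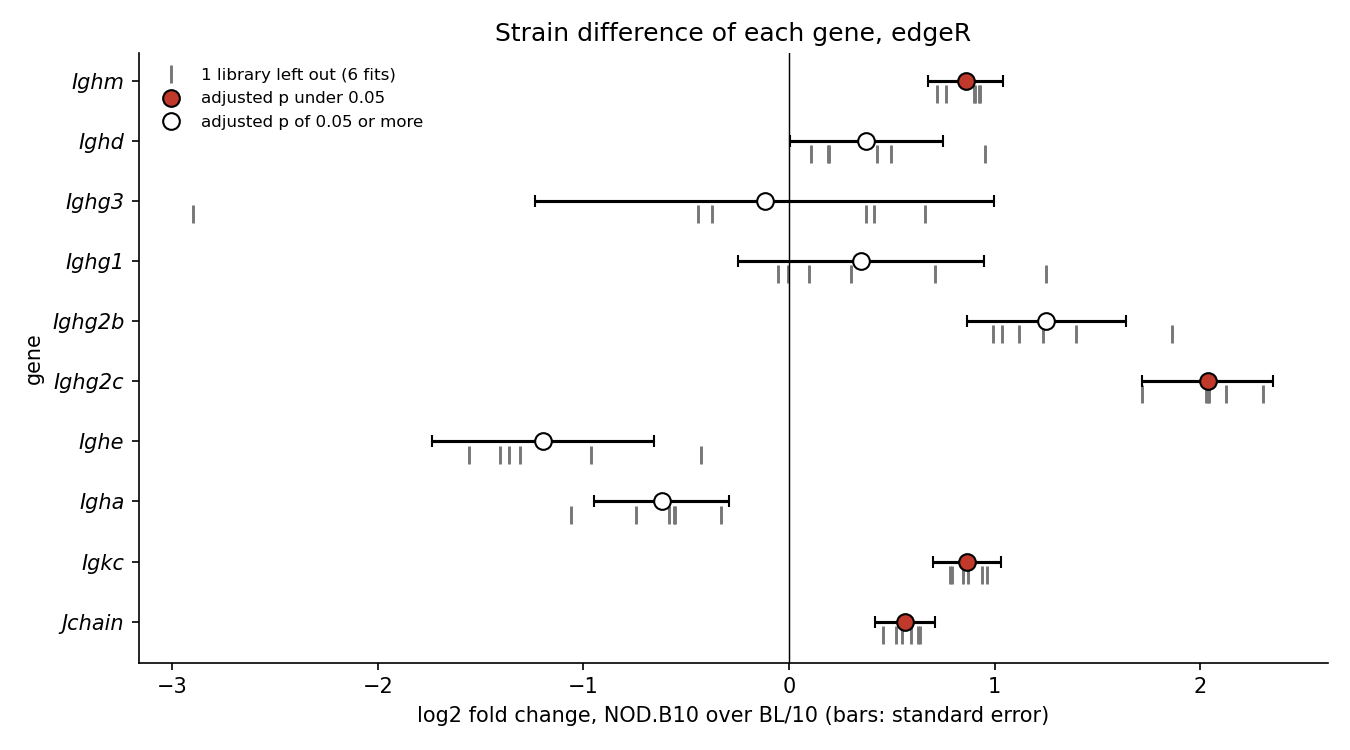
Log2 fold change of NOD.B10 over BL/10 for each gene from edgeR, with standard error bars, heavy chain genes in locus order. Filled points have an adjusted p under 0.05, and grey ticks are the 6 fits that each left out 1 library. The ticks of Ighg2c lie between 1.72 and 2.30, and those of Ighg3 fall on both sides of 0, from -2.90 to 0.66.

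The kappa and J chain genes rose with Ighm. Igkc, which encodes the constant part of the kappa chain, had 10007, 12296 and 11139 CPM in NOD.B10 and 6955, 5395 and 5995 CPM in BL/10. The strains did not overlap (11148 ± 1145 CPM against 6115 ± 787 CPM, SD, n = 3 each), and the log2 fold change was 0.87 (SE 0.17, edgeR adjusted p = 0.0118). It stayed past the threshold with each library left out (adjusted p between 0.0164 and 0.0492 in edgeR), but not in the 26-week libraries alone (log2 fold change 0.68, edgeR adjusted p = 0.101).

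Jchain had 2626, 3050 and 2964 CPM in NOD.B10 and 2156, 2023 and 1665 CPM in BL/10. This was the smallest of the called differences, 2880 ± 224 CPM against 1948 ± 254 CPM (SD, n = 3 each), with a log2 fold change of 0.56 (SE 0.14, edgeR adjusted p = 0.0345). The log2 fold change lay between 0.46 and 0.64 with each library left out. The adjusted p was over 0.05 in all of those fits (up to 0.113) except the fit without BL/10 replicate 1.

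Levels of different genes were compared per kilobase of annotated exon, and how evenly reads covered those exons was not examined. Igkc was highest in both strains (20954 CPM per kb in NOD.B10 and 11494 in BL/10), followed by Ighm (7712 and 4252 CPM per kb), and neither overlapped with the gene below it in any library. In NOD.B10, Jchain (1144 CPM per kb) and Ighg2c (776) came next. Among Ighg2c, Igha, Ighg2b, Ighg3 and Ighd, neighbours in mean level overlapped, so the full order was not resolved. On this scale the NOD.B10 libraries did separate Ighg2c (771 to 784 CPM per kb) from Ighg2b (394 to 588), and Ighg2b from Ighd (200 to 299). By counts, Ighg2b was above Ighg2c in every library. In BL/10, Igha (784 CPM per kb) and Jchain (774) came after Ighm and overlapped each other, and Ighg2c (189) lay with Ighg2b (209) and Ighd (186), which all overlapped. Ighe was lowest in both strains, at 0.915 and 2.15 CPM per kb.

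Isotype usage was then examined as the share of each gene in all heavy chain constant counts, 295406 to 352224 counts in NOD.B10 and 152961 to 248756 in BL/10. Shares were not tested, because they are scores over the chosen genes. Ighm made up 74.1%, 82.6% and 67.0% in NOD.B10 and 63.3%, 67.7% and 70.3% in BL/10, with overlap. The 4 IgG genes together made up 16.4%, 11.96% and 19.6% in NOD.B10 and 19.3%, 8.66% and 8.56% in BL/10, also with overlap. The overlap came from BL/10 replicate 1. Without it the NOD.B10 shares of IgG all lay above BL/10, and the difference in means went from 3.82 to 7.39 percentage points.

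The share of Ighg2c was 5.31 ± 0.437% (SD, n = 3) of heavy chain counts in NOD.B10 and 2.04 ± 0.685% (SD, n = 3) in BL/10, with no overlap. The share of Igha was 7.06%, 3.64% and 10.5% in NOD.B10 and 12.98%, 21.6% and 18.9% in BL/10, lower in every NOD.B10 library. These shares have Ighm as their largest part, and Ighm itself was higher in NOD.B10. The level of Igha overlapped between the strains (edgeR adjusted p = 0.222), so its lower share is no result about Igha alone. How many other genes are apart on this measure was not counted. Among the 4 IgG genes alone, the strains overlapped for every gene. Ighg2c held 35.4%, 41.5% and 26.3% of IgG counts in the NOD.B10 libraries, against 12.998%, 14.4% and 27.4% in BL/10, where replicate 3 lay within the NOD.B10 range. Ighg3 held 1.54%, 3.14% and 29.7% in NOD.B10 and 32.7%, 26.6% and 28.4% in BL/10. NOD.B10 replicate 3 had an Ighg3 share in the range of BL/10, and the other NOD.B10 libraries were far below it. Ighg2b was the largest IgG subclass by counts in all libraries, at 33.6% to 47.3% of IgG counts, but its counted exons are also the longest (2678 bases). Per kb of exon Ighg2b was the largest in no library. Ighg2c was above Ighg2b in every NOD.B10 library (771 to 784 against 394 to 588 CPM per kb). Ighg3 was above Ighg2b in every BL/10 library (789, 218 and 273 against 355, 141 and 131 CPM per kb). These per kb orders rest on unlike annotated lengths (1326 bases for Ighg2c and 1082 for Ighg3). How reads covered the exons was not examined, so which subclass is largest was not resolved.

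**Figure D3:**
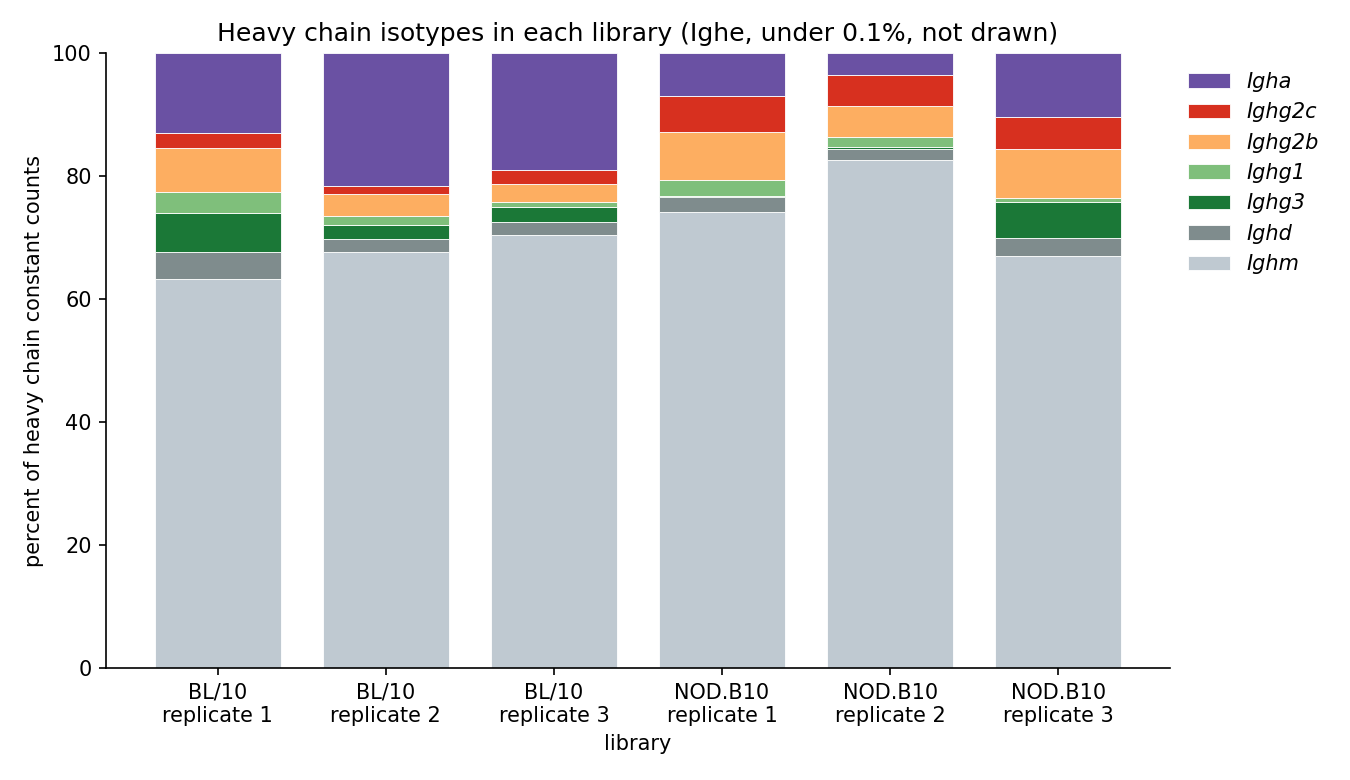
Stacked percent of heavy chain constant counts taken by each gene in each library. Igha takes 12.98% to 21.6% in BL/10 and 3.64% to 10.5% in NOD.B10, Ighg2c takes 4.97% to 5.80% in NOD.B10 and 1.25% to 2.51% in BL/10, and Ighg3 takes 0.252% and 0.376% in NOD.B10 replicates 1 and 2. Ighm is the largest part of each bar and was itself higher in NOD.B10, and the level of Igha overlapped between the strains.

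To ask whether a gene differed beyond Ighm, each of the other 9 genes was set against Ighm within each library. A ratio within a library does not depend on scaling, and an exact two-sided permutation test of 3 against 3 libraries cannot give a p below 0.1, so none of the 9 comparisons could pass 0.05. There were 7.83, 6.01 and 7.71 Ighg2c reads per 100 Ighm reads in NOD.B10 and 3.97, 1.85 and 3.33 in BL/10, a difference in mean log2 ratio of 1.30 (exact permutation p = 0.1). There were 9.52, 4.41 and 15.6 Igha reads per 100 Ighm reads in NOD.B10 and 20.5, 31.9 and 26.9 in BL/10, a difference of -1.58 (exact permutation p = 0.1). Ighe gave the same p, with a difference of -1.88 on few counts. For these 3 of the 9 genes the strains did not overlap, 1 higher and 2 lower in NOD.B10. Because Ighm itself was higher in NOD.B10, 79.7% of the other 15329 tested genes were lower against Ighm without overlap, 2.24% were higher and 81.9% were one or the other. The lower ratios of Igha and Ighe are therefore like those of most genes and are no result about these genes.

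Igkc kept close to Ighm, with 71.2 to 83.98 reads per 100 Ighm reads in NOD.B10 and 70.0 to 81.3 in BL/10 (difference 0.015, exact permutation p = 0.9). Set against all heavy chain counts, Igkc had 56.6, 58.8 and 56.3 reads per 100 in NOD.B10 and 51.5, 52.6 and 49.2 in BL/10, a small difference without overlap. These heavy chain counts include Igha, whose share was lower in every NOD.B10 library, and its part in the difference was not tested. How many other genes are apart on this measure was not counted. Jchain had 18.31, 16.9 and 19.3 reads per 100 reads of Ighm and Igha in NOD.B10 and 20.9, 22.1 and 15.3 in BL/10. These ranges overlapped.

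**Figure D4:**
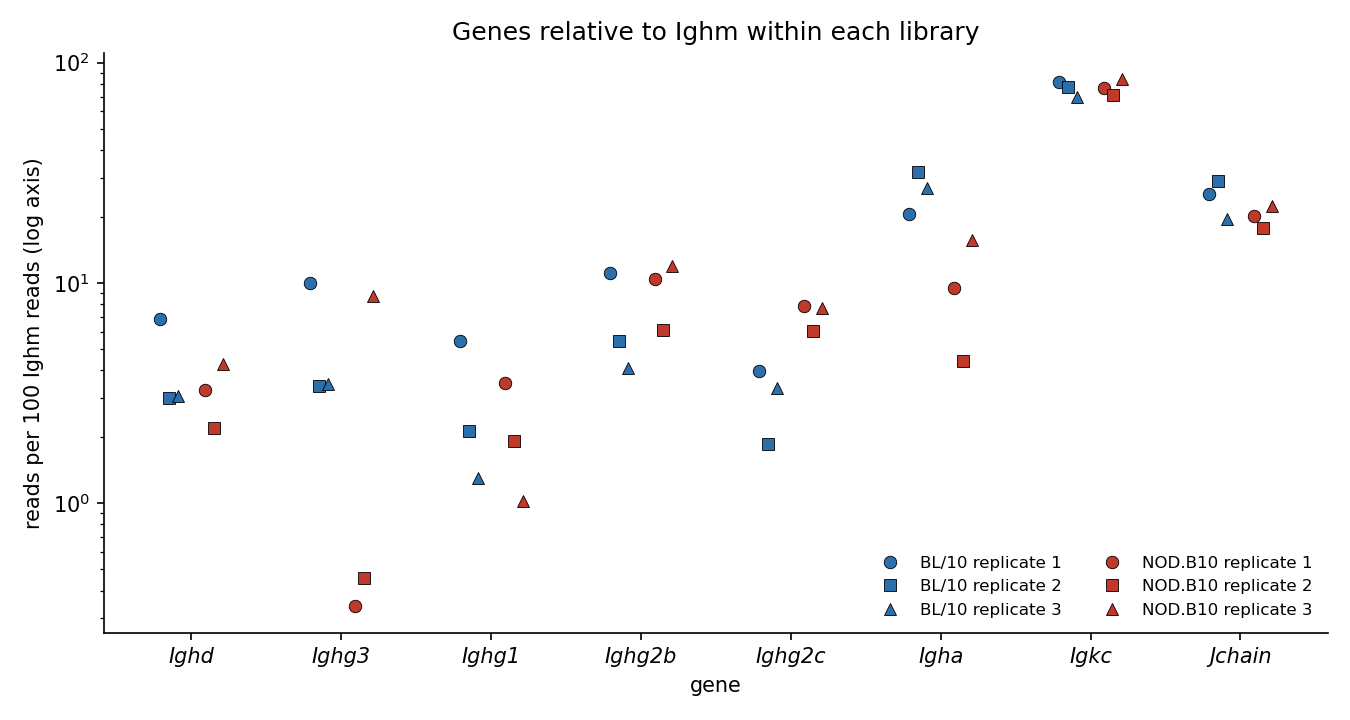
Reads of each gene per 100 Ighm reads in each library (log axis), with symbols for the replicate and colours for the strain. Ighg2c was higher in NOD.B10 without overlap (6.01 to 7.83 against 1.85 to 3.97), Igha was lower (4.41 to 15.6 against 20.5 to 31.9), as 79.7% of all tested genes were, and Igkc lies between 70.0 and 83.98 in all libraries.

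Genes of plasma cells and antibody secretion were compared next, because they tell how the antibody producing program moved beside the antibody itself. Of 24 genes, all tested, 8 rose and none fell in NOD.B10 (median log2 fold change 0.35, against 0.0006 over all tested genes). The other 16 were not called, and 9.11% of all tested genes were called higher and 8.22% lower. DESeq2 called 12 genes of the list higher and 1 lower. Some other edgeR settings also called 1 lower, among them the fit without NOD.B10 replicate 3. Xbp1, the transcription factor of the secretory program, had 247 to 281 CPM in NOD.B10 and 153 to 177 CPM in BL/10 (log2 fold change 0.63, edgeR adjusted p = 0.00686). Prdm1, which encodes the plasma cell regulator Blimp-1, had a log2 fold change of 0.64 (adjusted p = 0.00968), and Sdc1, the plasma cell surface marker CD138, one of 0.81 (adjusted p = 0.0114). Mzb1, a chaperone that aids IgM assembly, had the largest called change in the list, 0.87 (adjusted p = 0.0137), close to those of Ighm and Igkc. The list was sensitive to single libraries, since between 3 and 12 of its genes were called with each library left out (3 without BL/10 replicate 3, 12 without BL/10 replicate 1) and none in the 26-week libraries alone, where edgeR has 1 control.

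B cell identity genes did not pass the test. None of 18 genes was called by edgeR and 1 was called by DESeq2, 2 (Cr2 and Blnk) had an unadjusted p under 0.05 in edgeR, and the median log2 fold change of the list was 0.20. Cr2, the complement receptor CD21, came closest, with 601 to 840 CPM in NOD.B10 and 426 to 554 CPM in BL/10 (log2 fold change 0.51, edgeR adjusted p = 0.0662), followed by the adaptor Blnk (0.32, adjusted p = 0.0843). The summed B cell genes were 5107 to 6770 CPM in NOD.B10 and 6846, 3763 and 4228 CPM in BL/10. Without BL/10 replicate 1, 10 of the 18 genes were called, all higher in NOD.B10. That library was also the highest of the BL/10 libraries for Ighd, Ighg1, Ighg2b, Ighg2c and Ighg3, and the part of its B cell level in those values was not tested.

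Class switch machinery gave no common direction. Of 29 genes tested of 30, 1 rose and 2 fell (median log2 fold change -0.06), beside 9.11% of all tested genes called higher and 8.22% lower. Batf, a transcription factor needed for switching, rose (log2 fold change 0.62, edgeR adjusted p = 0.0363). Xrcc6, the Ku70 subunit of DNA end joining, and Exo1, a repair exonuclease, fell (-0.79 and -0.86, adjusted p = 0.0181 and 0.0289 in edgeR), and both also serve dividing cells in general. With each library left out, 0 to 7 genes of this list were called (none without NOD.B10 replicate 1 or 3, 7 without BL/10 replicate 1).

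Cytokines, receptors and factors that direct switching had 4 of 23 tested genes higher in NOD.B10 and none lower (median log2 fold change 0.27). Of all tested genes, 9.11% were called higher, 8.22% lower and 17.3% in either direction. The share called in this list was thus close to that of all genes in either direction. Cd40lg, the T cell signal that licenses switching, rose most, from 1.31 to 2.50 CPM in BL/10 to 5.83 to 8.60 CPM in NOD.B10 (log2 fold change 1.95, edgeR adjusted p = 0.00358). Runx3, a factor in IgA and IgG2b switching, rose by a log2 fold change of 0.65 (adjusted p = 0.0035), Il4ra, the IL-4 receptor chain, by 0.62 (adjusted p = 0.0441) and Tgfbr2, a TGF-β receptor, by 0.47 (adjusted p = 0.0414). All of these are also expressed by T cells, and 14 of 16 T cell marker genes rose in NOD.B10, with a summed level of 1232 to 1698 CPM against 534 to 739 CPM in BL/10. The part of T cell content in these changes was not tested. The called genes of this list numbered 9 without BL/10 replicate 1 and 2 without BL/10 replicate 2 or any 1 NOD.B10 library.

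**Figure D5:**
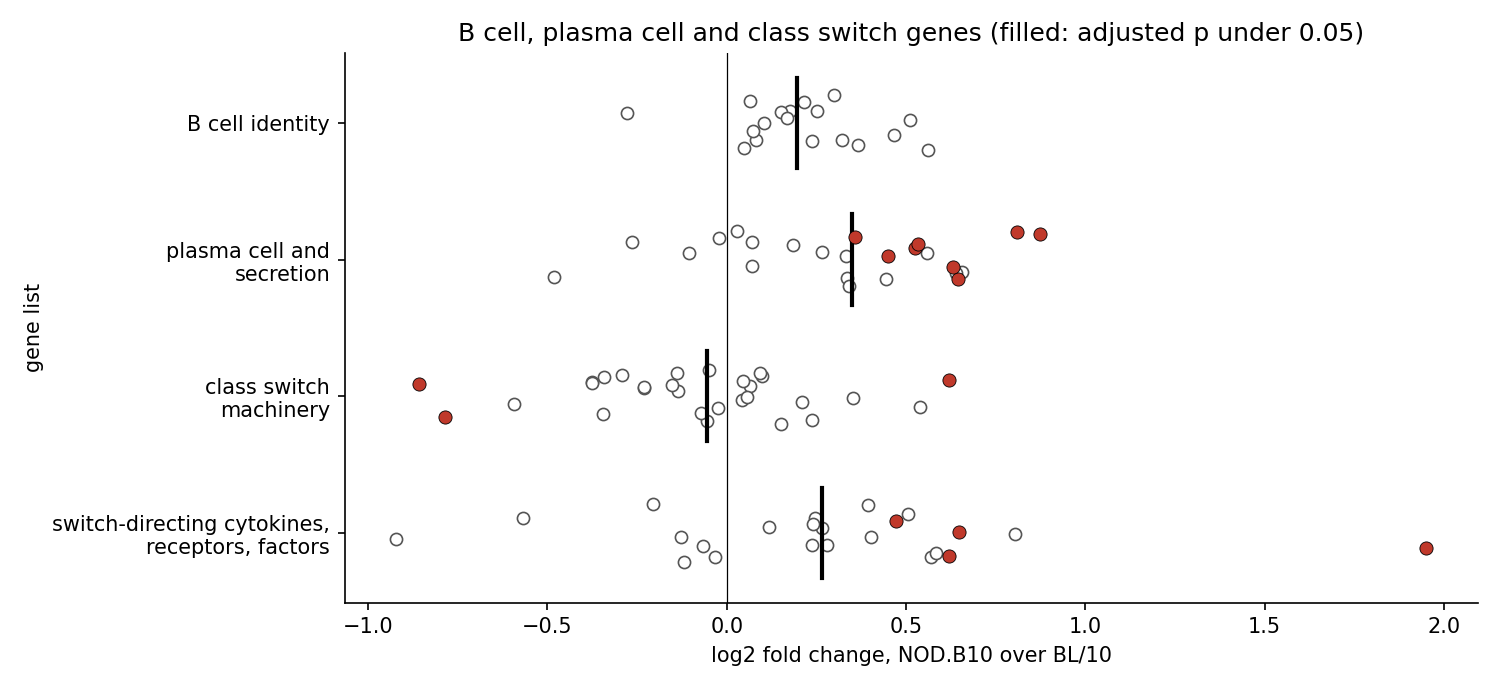
Log2 fold changes (NOD.B10 over BL/10) of the tested genes in 4 lists, 1 point a gene, with a bar at the median of each list. Filled points have an adjusted p under 0.05 in edgeR. Filled points are all to the right of 0 for plasma cell genes (8 of 24), and lie on both sides for class switch machinery (1 higher, 2 lower).

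Partners of polymeric antibody were few. Cd5l, a macrophage protein that binds IgM through J chain, fell in NOD.B10, with 136, 115 and 88.4 CPM against 344, 341 and 367 CPM in BL/10 (log2 fold change -1.63, edgeR adjusted p = 0.000666). It moved opposite to Ighm and Jchain. Pigr, which carries J chain antibody across epithelia, was low in spleen, at 0.737 to 1.90 CPM, though above the floor. Neither Pigr nor the Fc receptor genes Fcmr and Fcamr passed the test.

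Markers of some other cells moved with strain as well. All 12 neutrophil genes fell in NOD.B10 (summed level 2334 to 2604 CPM against 6445 to 12849.6 CPM). Pancreas acinar genes fell in 16 of 16 tested (none was called by edgeR without NOD.B10 replicate 1 or 3, and 1 without NOD.B10 replicate 2). Of 11 erythroid genes 1 fell (5 without BL/10 replicate 1). It was Hba-a2, at 5.34 to 9.09 CPM in NOD.B10 and 1867 to 4810 CPM in BL/10. Hba-a1 was not called (log2 fold change 0.27), and whether reads of both strains map equally well to Hba-a2 was not tested. The part of these cells in the antibody gene differences was not tested. The called differences of Ighm, Ighg2c, Igkc and Jchain were as large or larger without BL/10 replicate 1, the library with the most pancreas RNA (log2 fold changes 0.90, 2.30, 0.96 and 0.64). In the 26-week libraries alone, where that library is the single control, they were 0.77, 1.60, 0.68 and 0.42.

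Last, the genes outside the immunoglobulin loci with the most similar profile over the 6 libraries were listed by the mean absolute difference of centred log2 CPM. For Ighm they were Tcp11l1 (0.068), Cdcp1 (0.078) and Chst1 (0.079), and for Jchain they were Pon3 (0.050), Gpr55 (0.053) and Stra6l (0.060). For Ighd they were Cacna1i (0.080), Fcer2a (0.092), which encodes the B cell receptor CD23, and Snord35b (0.104). Igha had no profile as close, with Gm4890 (0.141), Cdh8 (0.160) and Pknox2 (0.185) nearest.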

How the data were processed

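Spleen RNA was sequenced by the authors, who deposited unnormalised read counts for each gene, with a gene length column that is no sample. Per the file headers, the authors counted reads on exons with featureCounts version 1.5.1 and Ensembl annotation 84 (GRCm38), with settings that leave out reads in several places or over several genes and do not use strand. The paper names Tophat2 as the aligner, and the submitters' processing notes name HISAT2 version 2.0.5. Symbols from GENCODE M21 matched 47224 of 47729 identifiers. The hinge exons and secreted ends were cut from its transcripts, which were also searched, on both strands, for shared 50-base stretches.

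The software was edgeR 4.0.16 and DESeq2 1.42.0 under R 4.3.3. The filterByExpr filter left 15330 genes, which were scaled by TMM and tested by edgeR's quasi-likelihood test, with BL/10 as reference and Benjamini-Hochberg adjusted p under 0.05. The standard error was the absolute log2 fold change over the square root of F. Summed list levels were scaled to the library total without TMM. Library totals were 15662712 to 18298451 counts, and replicates of a strain differed by a chi-square of at least 13.6 per degree of freedom, so none was a copy. In simulated counts for this comparison (15145 genes run), 191 of 200 changed genes were found, with 18 false calls. The genes, lists and named genes were chosen with earlier results of these data known. Named genes were the 10 genes and, in each list, the 4 called genes with the smallest p (the lowest 2 where none was called), with Xbp1, Prdm1, Sdc1 and Pigr. Some genes that the rule names are not reported here. Likeness used a pseudocount of 0.5 CPM. Alternatives were DESeq2, other scalings (RLE, upper quartile, without immunoglobulin genes), other filters, a replicate block and leaving out each library. The fit on 26-week libraries was chosen after seeing the data.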

Additional observations from a re-analysis of the deposited data

How the results depend on the processing

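Members called numbered 4 with DESeq2, RLE, upper-quartile or immunoglobulin-free scaling, 5 without a filter and 3 with at least 10 counts in every sample. Leaving out 1 library gave 2 to 6 called members, 1269 to 4107 called genes in all (2656 with all libraries) and 31 to 88 called list genes (59 with all), the most each time without BL/10 replicate 1. The difference in IgG share then lay between 2.00 and 7.39 percentage points (3.82 with all libraries), and 3 or 4 genes were apart from Ighm without overlap. The 26-week libraries alone gave 1001 called genes and 1 called member, with BL/10 replicate 1 assumed to vary like the NOD.B10 libraries, and a reversed Ighd (-0.36) and Ighg1 (-0.60). Ighg1 also reversed without NOD.B10 replicate 1 (-0.0519) or BL/10 replicate 3 (-0.0066), and Ighg3 without NOD.B10 replicate 1 (0.42), NOD.B10 replicate 2 (0.38) or BL/10 replicate 1 (0.66), none of them past the threshold. The cause was not tested. Leaving out 1 library moved Ighg1 between -0.0519 and 1.25 and Ighg3 between -2.90 and 0.66. Ighg2c was called in each of these fits and under all other settings.

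Same-numbered libraries of the strains shared only a number (correlations of their deviations 0.032, 0.172 and -0.084). With a replicate block 2889 genes and 3 members were called, since Ighg2b passed (adjusted p = 0.0335 in edgeR) and Ighm (0.0548) and Jchain (0.0608) did not.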

Other observations

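No lambda light chain gene was called higher beside kappa. Iglc1, Iglc2 and Iglc3 together had 7.46, 7.43 and 9.94 counts per 100 Igkc counts in the NOD.B10 libraries against 16.3, 12.01 and 10.5 in the controls, with every NOD.B10 library below every BL/10 library. The share of all tested genes that were lower against Igkc in this way was not counted. Summed lambda and surrogate genes had 758, 916 and 1149 CPM in NOD.B10 and 1143, 623 and 619 CPM in BL/10. BL/10 replicate 1 thus lay within the NOD.B10 range, and the other BL/10 libraries lay below it. None of the 4 tested lambda and surrogate light chain genes passed edgeR's test, DESeq2 called 0 of them and 0 had an unadjusted p under 0.05 in edgeR. Iglc2 had a log2 fold change of 0.48 (adjusted p = 0.279) and Iglc1 one of -0.15 (adjusted p = 0.763), so the lower ratio came with higher Igkc and no called change of a lambda gene.

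Igll1, which encodes a surrogate light chain of early B cell precursors, had no count in any NOD.B10 library and 10, 85 and 37 counts in the BL/10 libraries. It fell under the filter on low counts. In the fit without that filter it was called lower in NOD.B10 by edgeR (adjusted p = 0.00302).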
